A study of Homo sapiens with 20 samples.

Results

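ZFP36, ZFP36L1, ZFP36L2, ZC3H12A, ZC3H12C and N4BP1 encode proteins that shorten the life of cytokine mRNAs or restrain the signalling that makes them. They were picked by name from the deposited count table, 6 genes of 58676, and all 6 passed the filter on low counts, which kept 12111 genes. The libraries came from immortalized human pericytes, the mural cells of capillaries, grown as a single wild-type line (CL 05008-CLTH) in DMEM with 10% fetal bovine serum. There were 4 groups of 5 libraries. One received recombinant human eNAMPT at 500 ng/mL together with PDGF-BB at 20 ng/mL. Another received the same eNAMPT alone, a further one the same PDGF-BB alone, and control cells had no agent named in the labels. Exposure lasted 4 h, and total RNA was sequenced. eNAMPT is the secreted form of nicotinamide phosphoribosyltransferase, which acts on cells as a cytokine, and PDGF-BB is the platelet-derived growth factor that binds the receptor PDGFRB on pericytes. The labels call the libraries of a group biological replicates of this line and name no separate cultures, so the p-values measure the spread among libraries of a single line.

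Cytokine and growth factor mRNAs are made in bursts and then cleared quickly, and RNA-binding proteins do much of that clearing. ZFP36 (tristetraprolin) and its relatives ZFP36L1 and ZFP36L2 bind AU-rich stretches in the 3′ untranslated region (UTR) through paired CCCH zinc fingers and bring in the CCR4-NOT complex, which removes the poly(A) tail. The kinases p38 and MK2 phosphorylate ZFP36 and hold it in a less active form. ZC3H12A (Regnase-1, also MCPIP1) is an endoribonuclease that cuts stem-loops in 3′ UTRs, and it works with the roquin proteins, the helicase UPF1 and the protease MALT1, which destroys it after receptor stimulation. ZC3H12C is a close relative of ZC3H12A, and N4BP1 carries a nuclease domain of a related fold and is a known brake on NF-kB signalling.

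The libraries held 2894878 to 4011066 gene counts (median 3269230), and spike-in RNA took 1.57 to 2.91% of all counts. The summed level of 10 pericyte markers lay between 321 and 444 CPM (gene counts scaled by TMM to a common library total) over the 20 libraries, with DES too low to test. The 8 endothelial markers summed to 5.45 to 14.7 CPM, the 8 leukocyte markers to 19.6 to 31.6 CPM and the 6 epithelial markers to 0.306 to 6.24 CPM. Of the leukocyte sum, CD14 gave most, PTPRC had 5 counts in all 20 libraries and LYZ had 0. Of these lists 9 pericyte, 2 endothelial, 3 leukocyte and 0 epithelial markers had enough counts to be tested, and none of these passed in any comparison in edgeR or DESeq2. Over the 7 tests, 6 of 63 values of the pericyte markers had an unadjusted p under 0.05 (9.52%, against 7.27% of the values of all genes), and 0 of 14 endothelial and 0 of 21 leukocyte values did. In bulk RNA, fewer cells making a transcript and less transcript per cell cannot be told apart.

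Of the 6 genes, ZFP36L1, ZC3H12A and ZC3H12C rose in 1 or more treated groups. ZFP36L1 was higher in each group that received PDGF-BB, ZC3H12A had its highest mean with eNAMPT alone and passed the test with both factors, and ZC3H12C passed with both factors. ZFP36, the founding member of its family, passed the test in no comparison, and neither did ZFP36L2 or N4BP1. With both factors against control, 3 of the 6 genes rose and 0 fell, where 1.63% of all tested genes were called higher and 0.347% lower (edgeR quasi-likelihood test, Benjamini-Hochberg adjusted p under 0.05 here and below). With PDGF-BB against control 1 rose, against 1.05% of all genes. With eNAMPT against control 0 of 6 passed, against 0.0743% of all genes, while 2 were higher at an unadjusted p under 0.05, against 1.92% of all genes, and 1 passed in DESeq2. These 3 comparisons share the control libraries. The 6 genes and the lists below were chosen with earlier results of these data known. Every count of them beside a share of all genes, here and below, is therefore a description.

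Between the treated groups, 1 gene was higher with both factors than with eNAMPT alone, against 1.18% of all genes. With both factors against PDGF-BB alone 0 passed in edgeR and in DESeq2, against 0.0578% of all genes, and 1 was higher at an unadjusted p under 0.05, against 1.78%. With eNAMPT against PDGF-BB 1 gene was lower, against 0.85% of all genes. The median log2 fold change of the 6 genes was 0.51 with both factors, 0.10 with eNAMPT and 0.36 with PDGF-BB, each over control, where the medians of all genes were -0.01, -0.00058 and -0.01. With libraries scaled by their spike-in counts in place of TMM, 0 of the 6 genes passed in any comparison in edgeR. That scaling also moved the median log2 fold change of all genes to -0.14 with both factors over control, -0.15 over PDGF-BB and -0.14 over eNAMPT.

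**Figure D1:**
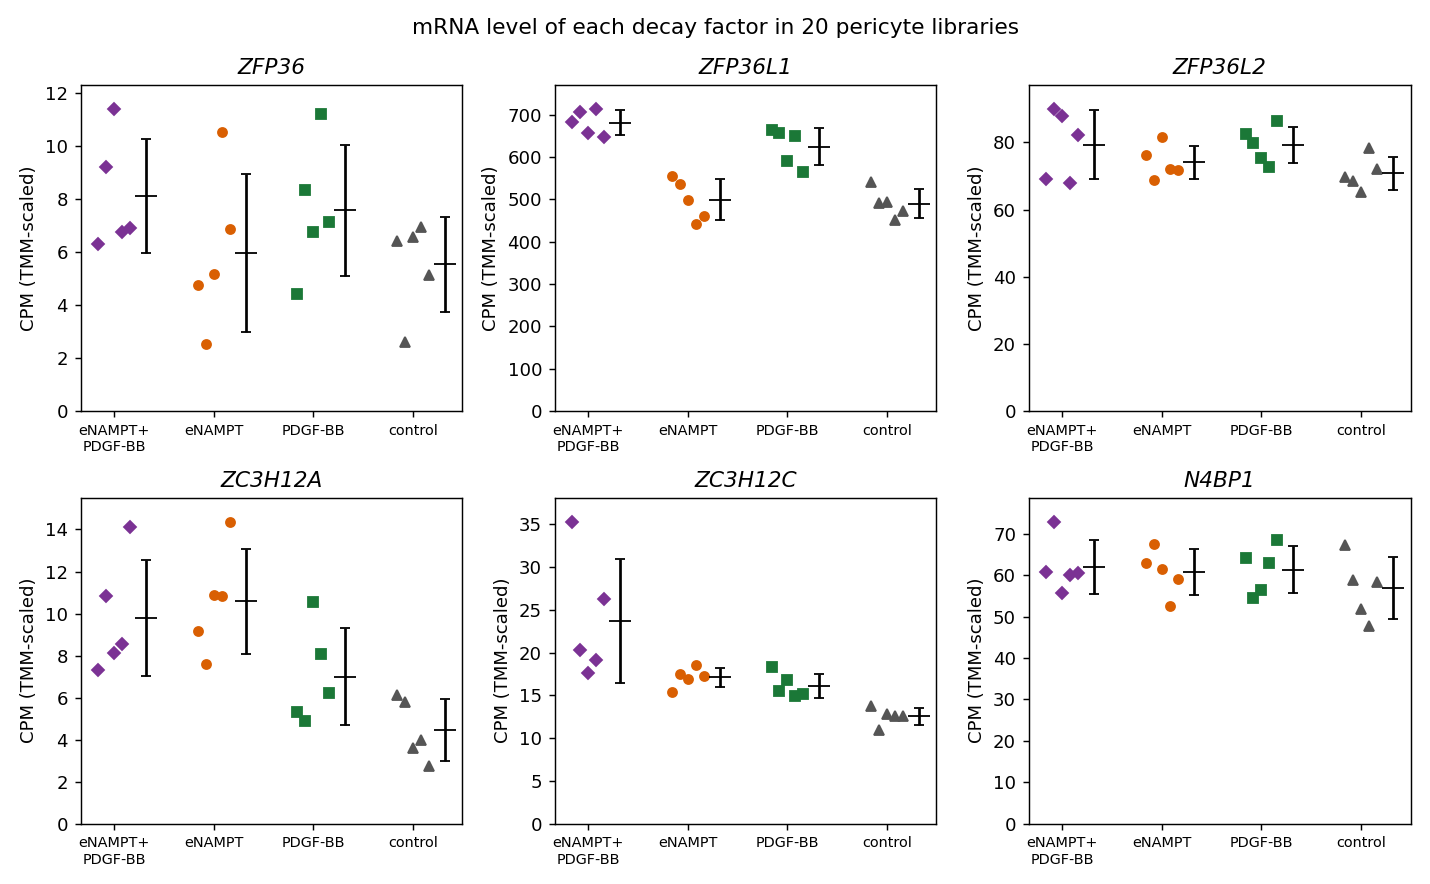
Level of each decay factor in CPM (vertical axis, from 0) in the 5 libraries of each group (points), with the group mean and SD beside them (bars). ZFP36L1 stands at 566 to 713 CPM in the groups with PDGF-BB and at 443 to 556 CPM in the others, and all eNAMPT libraries lie above all control libraries for ZC3H12A.

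Per kilobase of exon, with all annotated transcripts of a gene merged, ZFP36L1 was the most abundant of the 6 in control cells. Its 94.9 control CPM per kilobase of exon compared with 19.1 for ZFP36L2, 7.25 for N4BP1, 2.75 for ZFP36, 1.43 for ZC3H12A and 1.29 for ZC3H12C. The order at the bottom depends on that length. In control CPM not divided by it, ZC3H12C (12.5) stood above ZFP36 (5.53) and ZC3H12A (4.46). ZFP36 and ZC3H12A rested on few reads, 8 to 36 counts per library for ZFP36 and 8 to 44 for ZC3H12A. ZFP36L1 rested on 1383 to 2756 counts per library.

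ZFP36 (ENSG00000128016) lies on the plus strand of chromosome 19, 39406813 to 39409412 on GRCh38. Its level was 6.28, 9.21, 11.4, 6.73 and 6.90 CPM in the 5 libraries with both factors, 4.73, 2.54, 5.18, 10.5 and 6.86 CPM with eNAMPT, 4.43, 8.33, 6.75, 11.2 and 7.13 CPM with PDGF-BB, and 6.43, 2.58, 6.57, 6.94 and 5.12 CPM in control cells. The 4 groups overlapped, and single libraries of every group reached below 7 CPM. ZFP36 averaged 8.10 ± 2.16 CPM with both factors, 5.96 ± 2.98 CPM with eNAMPT, 7.56 ± 2.47 CPM with PDGF-BB and 5.53 ± 1.78 CPM in control cells (SD, n = 5 each). The log2 fold change over control was 0.54 with both factors (SE 0.33, adjusted p = 0.587), 0.44 with PDGF-BB (SE 0.33, adjusted p = 0.749) and 0.10 with eNAMPT (SE 0.34, adjusted p = 1.00) in edgeR. The 95% intervals were wide, from 0.92- to 2.30-fold with both factors and from 0.67- to 1.71-fold with eNAMPT.

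ZFP36L1 (ENSG00000185650, minus strand of chromosome 14, 68787660 to 68796253) had 683, 707, 656, 713 and 648 CPM with both factors, 556, 537, 499, 443 and 461 CPM with eNAMPT, 664, 657, 589.8, 649 and 566 CPM with PDGF-BB, and 542, 492, 493, 451 and 472 CPM in control cells. Every library with PDGF-BB, alone or combined, lay above every library without it. ZFP36L1 averaged 681 ± 29.4 CPM with both factors, 499 ± 48.2 CPM with eNAMPT, 625 ± 44.4 CPM with PDGF-BB and 489.9 ± 33.98 CPM in control cells (SD, n = 5 each). It rose 1.39-fold with both factors over control (log2 fold change 0.48, SE 0.069, adjusted p = 7.18e-06) and 1.28-fold with PDGF-BB over control (0.35, SE 0.069, adjusted p = 0.00203) in edgeR.

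eNAMPT added no detectable change in ZFP36L1. The log2 fold change with eNAMPT over control was 0.03 (95% interval -0.11 to 0.17, edgeR adjusted p = 1.00). With both factors over PDGF-BB alone it was 0.13 (95% interval -0.01 to 0.26, edgeR adjusted p = 1.00), all 5 libraries lying above the PDGF-BB mean while the groups overlapped. The eNAMPT group was lower than the PDGF-BB group by 0.32 on the log2 scale, and here too the groups did not overlap. The log2 fold change was -0.32 (SE 0.069, edgeR adjusted p = 0.00571), and with both factors over eNAMPT alone it was 0.45 (SE 0.069, edgeR adjusted p = 2.92e-05). All these calls held when any single library was left out. With spike-in scaling the fold changes were 0.35 with both factors over control (edgeR adjusted p = 0.798) and 0.40 with PDGF-BB over control (edgeR adjusted p = 1.00), so direction held and the calls did not, and the value with both factors over PDGF-BB turned to -0.046.

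ZFP36L2 (ENSG00000152518, minus strand of chromosome 2, 43222402 to 43226609) binds the same AU-rich sites and had 69.1, 89.9, 87.8, 67.8 and 82.2 CPM with both factors, 76.3, 68.8, 81.5, 72.0 and 71.8 CPM with eNAMPT, 82.4, 79.8, 75.3, 72.7 and 86.2 CPM with PDGF-BB, and 69.8, 68.5, 65.3, 78.3 and 72.0 CPM in control cells. The groups overlapped, and the highest control library exceeded 2 of the 5 libraries with both factors. The log2 fold change over control was 0.16 with both factors (edgeR adjusted p = 0.573), 0.07 with eNAMPT (edgeR adjusted p = 1.00) and 0.16 with PDGF-BB (edgeR adjusted p = 0.641). The 95% interval with both factors ran from 0.98- to 1.28-fold.

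ZC3H12A (ENSG00000163874) lies on the plus strand of chromosome 1, 37474552 to 37484379. It had 7.33, 10.8, 8.13, 8.54 and 14.1 CPM with both factors, 9.17, 7.61, 10.9, 10.8 and 14.4 CPM with eNAMPT, 5.31, 4.88, 10.5, 8.07 and 6.20 CPM with PDGF-BB, and 6.12, 5.81, 3.61, 4.01 and 2.73 CPM in control cells. All 10 libraries that received eNAMPT lay above all control libraries, while the PDGF-BB group overlapped every other group. ZC3H12A averaged 9.79 ± 2.75 CPM with both factors, 10.6 ± 2.51 CPM with eNAMPT, 7.00 ± 2.32 CPM with PDGF-BB and 4.46 ± 1.46 CPM in control cells (SD, n = 5 each). Neighbours in the order of these means, which runs from eNAMPT through both factors and PDGF-BB to control, did not pass the test against each other.

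With both factors ZC3H12A rose 2.18-fold over control (log2 fold change 1.13, SE 0.29, 95% interval of the fold 1.45 to 3.29, edgeR adjusted p = 0.0257). With eNAMPT alone its fold over control was 2.35 (log2 fold change 1.23, SE 0.29, 95% interval of the fold 1.56 to 3.54), and this did not pass in edgeR (unadjusted p = 0.000126, adjusted p = 0.117) but passed in DESeq2 (adjusted p = 0.0273). Across the other settings without a replicate block, and with single libraries left out, the edgeR adjusted p of the eNAMPT comparison ran from 0.0846 to 0.592. With the replicate numbers fitted as a block it was 0.0541. The authors' deposited table gives adjusted p = 0.0996 for eNAMPT and 0.0263 for both factors. Its log2 fold changes, control over treated, are -0.48 and -0.43, the same direction but smaller in size than the values fitted here. PDGF-BB alone gave a log2 fold change of 0.65 (SE 0.30, edgeR adjusted p = 0.476), all 5 libraries lying above the control mean.

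The call with both factors was lost without replicate 2 (edgeR adjusted p = 0.0580) or replicate 5 (0.120) of that group. It was lost, too, without control replicate 3 (0.0725), 4 (0.0766) or 5 (0.0846), so 5 of 10 such fits passed. Spike-in scaling (log2 fold change 0.98, edgeR adjusted p = 0.423) and a fit of only the groups compared (1.12, edgeR adjusted p = 0.0527) also lost it. The call held in DESeq2 (adjusted p = 0.0091) and in edgeR with RLE size factors (adjusted p = 0.0255) or a replicate block (0.0133). In edgeR it also held with no filter (adjusted p = 0.0303), at least 10 counts in 10 libraries (0.0251) and the other count table (0.0284). Adding PDGF-BB to eNAMPT moved the level by -0.11 on the log2 scale (95% interval -0.65 to 0.43, edgeR adjusted p = 0.933). Adding eNAMPT to PDGF-BB moved it by 0.48 (95% interval -0.08 to 1.04, edgeR adjusted p = 1.00). The test of whether the eNAMPT effect differed with and without PDGF-BB gave -0.76 (SE 0.40, unadjusted p = 0.0676, edgeR adjusted p = 1.00), and 0% of all genes passed it in edgeR, with 406 genes at an unadjusted p under 0.05 and 0 passing in DESeq2.

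ZC3H12C (ENSG00000149289, plus strand of chromosome 11, 110093361 to 110171841) had 35.3, 20.3, 17.6, 19.2 and 26.3 CPM with both factors, 15.4, 17.4, 16.9, 18.5 and 17.3 CPM with eNAMPT, 18.3, 15.5, 16.7, 14.9 and 15.2 CPM with PDGF-BB, and 13.8, 11.0, 12.8, 12.6 and 12.6 CPM in control cells. All 15 treated libraries lay above all 5 control libraries on this count table, and 2 libraries with both factors, at 35.3 and 26.3 CPM, stood above the rest of the series. ZC3H12C averaged 23.7 ± 7.25 CPM with both factors, 17.1 ± 1.13 CPM with eNAMPT, 16.1 ± 1.40 CPM with PDGF-BB and 12.5 ± 1.00 CPM in control cells (SD, n = 5 each). It rose 1.88-fold with both factors over control (log2 fold change 0.91, SE 0.18, edgeR adjusted p = 0.00163). Without any single library the fold change stayed between 0.73 and 0.99 on the log2 scale, with edgeR adjusted p between 0.00079 and 0.0200. With spike-in scaling it was 0.78 (edgeR adjusted p = 0.276).

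Each factor alone gave a smaller difference in ZC3H12C. The log2 fold change was 0.44 with eNAMPT over control (SE 0.19, edgeR adjusted p = 1.00) and 0.36 with PDGF-BB over control (SE 0.19, edgeR adjusted p = 0.556). With both factors over PDGF-BB alone it was 0.55 (SE 0.18, unadjusted p = 0.00365, edgeR adjusted p = 1.00), and over eNAMPT alone it was 0.46 (SE 0.18, edgeR adjusted p = 0.253). ZC3H12C overlaps RDX, the gene for radixin, on the opposite strand, and the sources used here do not say whether counting used strand. RDX had 389 ± 18.8 CPM with both factors and 405 ± 24.7 CPM in control cells (SD, n = 5 each) and a log2 fold change of -0.06 (edgeR adjusted p = 0.850).

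ZC3H12C was also the only 1 of the 6 genes whose counts differed widely between the deposited count tables. The table used here held 72.4% of the ZC3H12C counts of the other table, against 99.4% or more for the other 5 genes. The counts present only in the other table summed to 107 with both factors, 103 with eNAMPT, 103 with PDGF-BB and 122 in control cells, while the counts in the table used here were 384, 280, 275 and 202 in the same order of groups. On the other table the log2 fold change with both factors over control was 0.58 (edgeR adjusted p = 0.0333), with eNAMPT 0.22 and with PDGF-BB 0.14. There, 5 of 5 libraries with both factors still lay above all control libraries, but 2 of 5 with eNAMPT and 0 of 5 with PDGF-BB did. The ZC3H12C level on that table was 20.8 to 33.9 CPM with both factors, 17.4 to 22.0 CPM with eNAMPT, 16.2 to 19.3 CPM with PDGF-BB and 13.7 to 19.4 CPM in control cells. What separates the tables is not given in the sources used here.

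N4BP1 (ENSG00000102921, minus strand of chromosome 16, 48538726 to 48620148) had 60.7, 72.9, 55.6, 60.1 and 60.5 CPM with both factors, 63.0, 67.5, 61.6, 52.6 and 59.1 CPM with eNAMPT, 64.1, 54.6, 56.4, 63.0 and 68.6 CPM with PDGF-BB, and 67.3, 58.8, 51.9, 47.8 and 58.3 CPM in control cells. The groups overlapped throughout. The log2 fold change over control was 0.13 with both factors (edgeR adjusted p = 0.743), 0.10 with eNAMPT (edgeR adjusted p = 1.00) and 0.11 with PDGF-BB (edgeR adjusted p = 0.840), and the 95% interval with both factors ran from 0.94- to 1.27-fold.

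**Figure D2:**
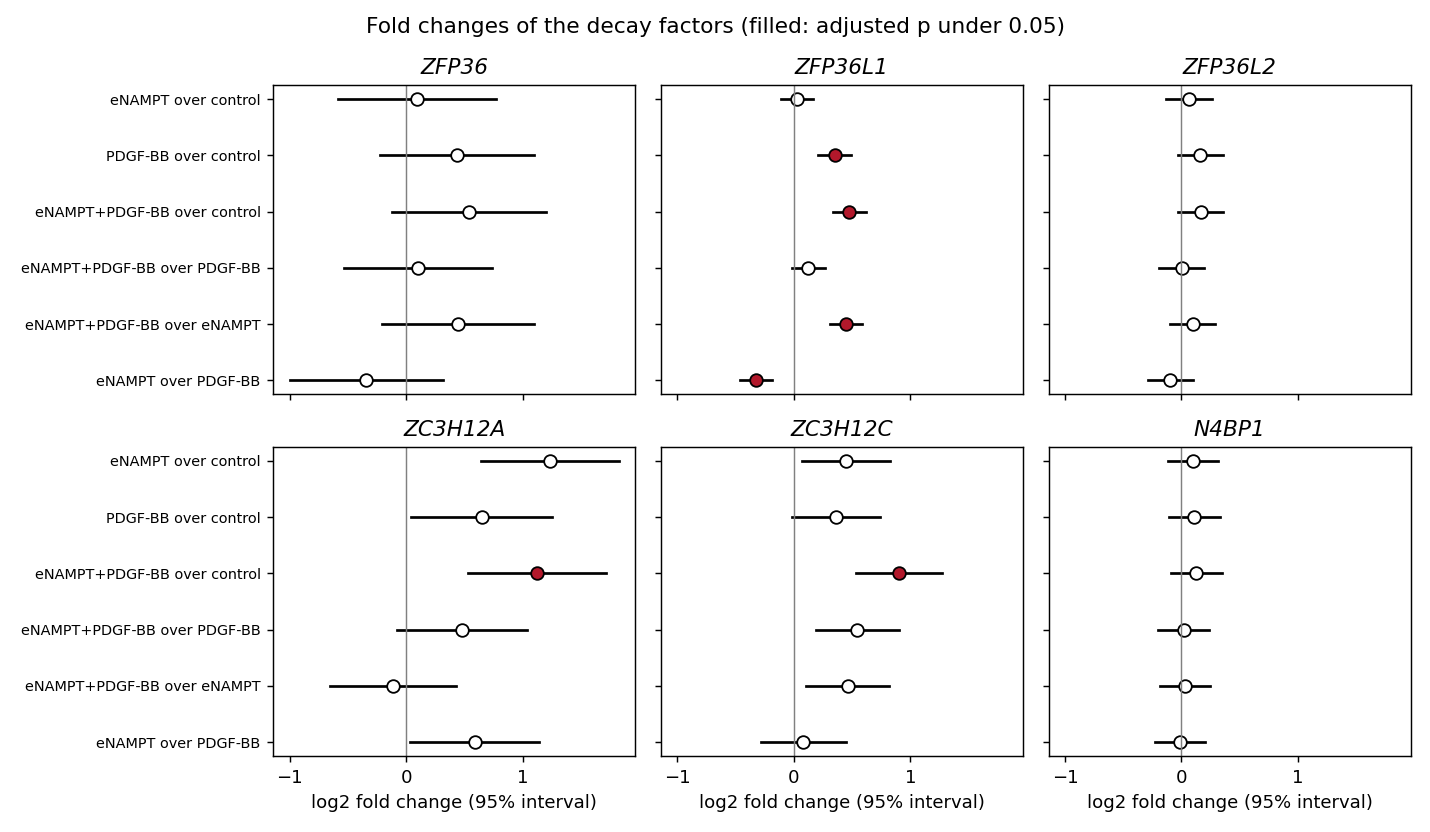
Log2 fold change of each gene (horizontal axis) with its 95% interval (line) in 6 comparisons (rows), a filled point marking an edgeR adjusted p under 0.05. ZFP36L1 is filled in the 4 comparisons that set PDGF-BB-treated cells against cells without it, ZC3H12A and ZC3H12C are filled for both factors over control, and the intervals of ZFP36 are the widest of its family.

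The count of genes whose 5 libraries all lay above the other 5 used no fitted test, but it rested on the same TMM-scaled levels. With both factors against control 3 of the 6 genes did so, against 1.75% of all tested genes. With eNAMPT against control the 2 were ZC3H12A and ZC3H12C, against 0.396% of all genes, and with PDGF-BB against control the 2 were ZFP36L1 and ZC3H12C, against 1.52%. On the other count table ZC3H12C overlapped control in both of these. With both factors against eNAMPT 1 gene did so, against 1.75%, and with both factors against PDGF-BB 0 did, against 0.322%.

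ZC3H12A and ZFP36L1 had their highest means in different groups, ZC3H12A with eNAMPT and ZFP36L1 with both factors. With eNAMPT against PDGF-BB the log2 fold change was 0.59 for ZC3H12A (95% interval 0.03 to 1.14, edgeR adjusted p = 0.505), against -0.32 for ZFP36L1 as given above. Cells with both factors combined a ZFP36L1 level above all eNAMPT libraries with a ZC3H12A level above all control libraries.

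**Figure D3:**
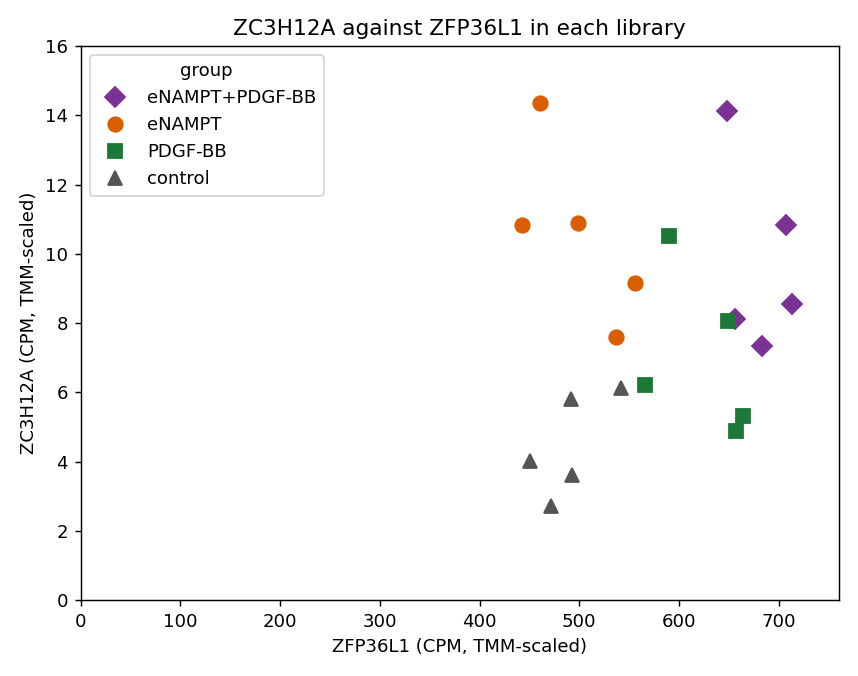
ZC3H12A (vertical axis, CPM) against ZFP36L1 (horizontal axis, CPM) in each of the 20 libraries, marked by group. The 5 eNAMPT libraries lie at 443 to 556 CPM of ZFP36L1 and 7.61 to 14.4 CPM of ZC3H12A, and the 5 control libraries at 451 to 542 CPM and 2.73 to 6.12 CPM.

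The promoter windows of the 3 genes that rose with both factors over control are shown because these are the genes the results turn on. RefSeq windows on GRCh38.p14, each 300 bases from 250 before to 50 after an annotated start, matched 5 of the 6 genes (7 windows). Both strands were searched for GCGNGGGCG (the EGR site), TGACGTCA (the CRE), TGANTCA (the AP-1 site), and the NF-kB and CArG sites by name, and capitals mark the matches, none of which overlap.
ZC3H12A, plus strand, chr1:37474330-37474629: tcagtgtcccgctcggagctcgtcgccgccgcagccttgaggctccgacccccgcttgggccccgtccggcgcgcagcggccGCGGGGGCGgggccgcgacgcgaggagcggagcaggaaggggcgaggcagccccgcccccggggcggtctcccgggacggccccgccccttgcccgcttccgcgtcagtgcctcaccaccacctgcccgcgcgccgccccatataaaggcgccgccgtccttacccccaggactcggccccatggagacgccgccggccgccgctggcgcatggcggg
ZC3H12C, plus strand, chr11:110093142-110093441: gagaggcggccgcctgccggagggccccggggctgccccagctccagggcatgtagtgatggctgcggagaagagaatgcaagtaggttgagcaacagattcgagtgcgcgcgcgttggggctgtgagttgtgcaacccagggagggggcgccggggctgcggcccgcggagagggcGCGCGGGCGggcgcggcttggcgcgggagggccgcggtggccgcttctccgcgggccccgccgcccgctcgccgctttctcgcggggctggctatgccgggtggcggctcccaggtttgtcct
ZFP36L1, minus strand, second start, chr14:68793367-68793666: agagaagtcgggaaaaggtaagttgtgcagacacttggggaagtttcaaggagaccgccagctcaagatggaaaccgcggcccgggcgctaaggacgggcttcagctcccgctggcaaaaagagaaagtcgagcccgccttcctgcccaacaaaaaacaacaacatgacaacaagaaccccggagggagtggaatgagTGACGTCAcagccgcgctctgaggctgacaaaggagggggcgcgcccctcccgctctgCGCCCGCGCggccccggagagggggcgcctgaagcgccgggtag
The EGR letters stand at -168 from the start in ZC3H12A, at -73 in ZC3H12C and at +6 in ZFP36L1, and the CRE letters at -52 in ZFP36L1. Of all 35116 windows 9.43% hold the EGR letters and 1.85% the CRE letters. These shares are not matched for base content, and the EGR letters are nearly all G or C. G and C make up 79% of the ZC3H12A window, 74.3% of the ZC3H12C window and 62.3% of the ZFP36L1 window shown. The ZFP36 window, with no match, has 74.7%. The window of N4BP1, which passed in no comparison, holds the CRE at -124, and those of ZFP36, the first start of ZFP36L1 and the second start of ZC3H12C hold no match. The NF-kB letters, found in 5.91% of all windows, the AP-1 letters, found in 7.71%, and the CArG letters, found in 1.29%, are in none of the 7 windows. A match is a description of the letters only.

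The ZFP36 family reads the heptamer UAUUUAU, written TATTTAT in the reference. Stretches of 30 bases from the 3′ UTR are shown, with the heptamer in capitals, for ZFP36 and ZFP36L1, for ZC3H12C, which holds the most copies among the 6 genes, and for the chemokines CXCL8 and CXCL1 and the cytokine IL6, whose mRNAs are described as targets of the family (GENCODE 29, gene strand).
ZFP36: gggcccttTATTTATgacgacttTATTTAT
ZFP36L1: ttatcaaaacgTATTTATtgccaaactatg
ZC3H12C: gctataatcatTATTTATagaaacaaagtt
CXCL8: aaccTATTTATTATTTATgTATTTATttaa
CXCL1: gagaagtcttcTATTTATTTATTTATtcat
IL6: ttttaaagaaaTATTTATattgTATTTATa
The longest annotated 3′ UTR holds 3 heptamers in ZFP36, ZFP36L1 and ZFP36L2, 5 in ZC3H12C, 1 in N4BP1 and 0 in ZC3H12A, with overlapping copies counted. Among genes whose 3′ UTR is within 20% of the same length, 19.4% hold a heptamer at the length of ZFP36, 52.7% at that of ZFP36L1, 72.4% at that of ZC3H12C and 20.6% at that of ZC3H12A. CXCL8 and CXCL1 hold 4 each and IL6 holds 3, at lengths where 28.7%, 19.1% and 11.7% of genes hold any.

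Many mRNAs described as targets of these proteins rose. Both target lists were chosen with earlier results of these data known, and they hold many cytokine and chemokine genes. Their counts beside the shares of all genes are therefore a description. Of 21 transcripts described as ZFP36 targets 19 were tested, and 14 rose with both factors over control, 4 with eNAMPT and 11 with PDGF-BB, with 0 lower in each, against the 1.63%, 0.0743% and 1.05% of all genes given above. Their median log2 fold change was 1.26, 0.26 and 0.77 in these comparisons, where the medians of all genes lay within 0.01 of 0. CXCL8 was at 385 CPM with both factors, 139 CPM with eNAMPT, 169 CPM with PDGF-BB and 42.5 CPM in control cells. The early response gene IER3 was at 1942, 1137, 1237 and 750.0 CPM in the same order, and the cytokine LIF at 58.6, 21.8, 43.3 and 18.3 CPM. TNF, the classical ZFP36 target, had 0 counts in all 20 libraries, and CSF2 had 34 and was not tested.

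Of the 19 ZFP36 targets tested, 13 were higher with both factors than with eNAMPT alone, against 1.18% of all genes, and 5 were higher than with PDGF-BB alone, against 0.0578% of all genes. More of all genes, too, were called over eNAMPT than over PDGF-BB, and the counts were not tested against each other. With eNAMPT against PDGF-BB 6 were lower, against 0.85% of all genes, among them IL11 (log2 fold change -1.34, edgeR adjusted p = 9.97e-09) and LIF (-0.99, edgeR adjusted p = 0.000466), and 1, CXCL1, was higher (1.21, edgeR adjusted p = 2.24e-07), against 0.198% of all genes. IL11 is a cytokine of the IL6 family.

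Of 15 transcripts described as ZC3H12A targets, ZC3H12A itself included, 10 were tested. With both factors over control 8 rose (ZC3H12A among them), with eNAMPT 2 and with PDGF-BB 3, against 1.63%, 0.0743% and 1.05% of all genes. Of the 15, 5 also stand in the ZFP36 list. IL6 was at 8.22 CPM with both factors, 2.99 CPM with eNAMPT, 3.27 CPM with PDGF-BB and 1.30 CPM in control cells. It rose with both factors over control (log2 fold change 2.62, edgeR adjusted p = 5.3e-05). This fold rests on few reads, as IL6 had 261 counts in all 20 libraries and 0.323 CPM in the lowest. PTX3, which encodes a secreted pattern-recognition protein, was at 229, 114, 155 and 65.3 CPM in the same order and rose in each comparison with control. NFKBIZ, which encodes a nuclear IkB protein, was at 45.7, 39.7, 26.1 and 28.3 CPM. It was higher with both factors than with PDGF-BB (log2 fold change 0.81, edgeR adjusted p = 0.00759) and with eNAMPT than with PDGF-BB (0.61, edgeR adjusted p = 0.0359).

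**Figure D4:**
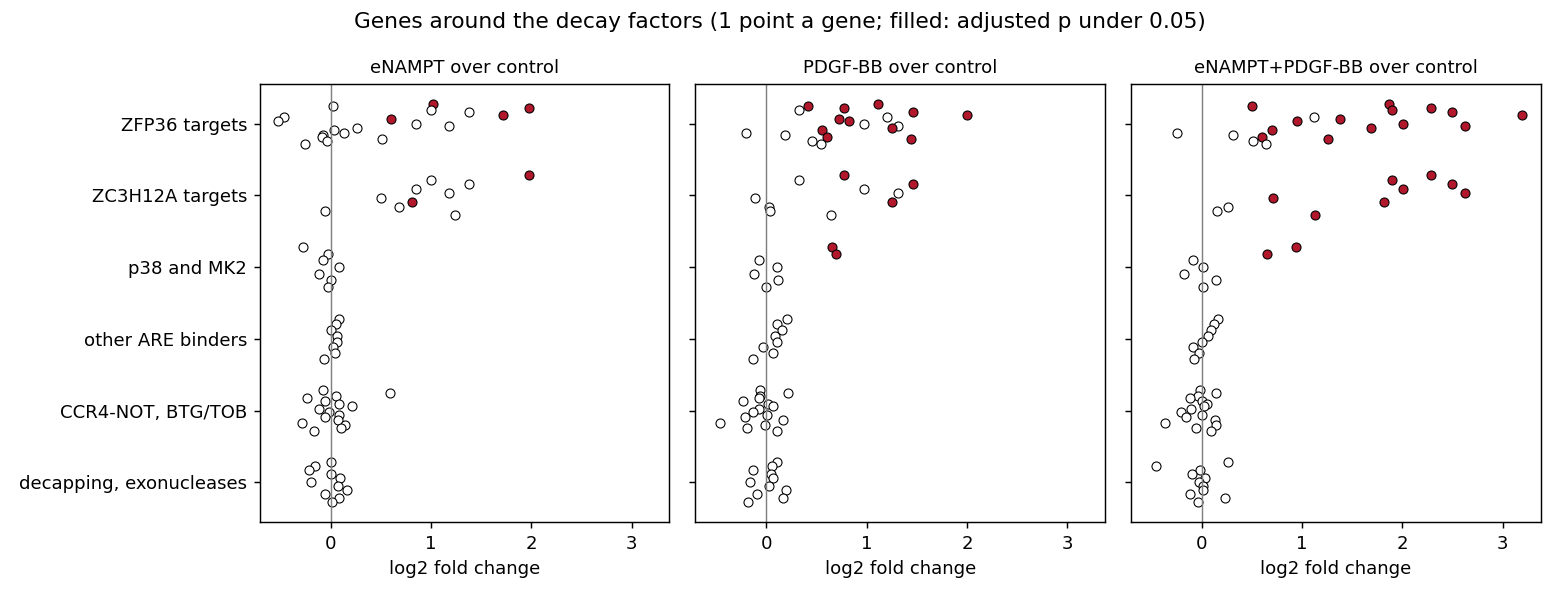
Log2 fold change over control (horizontal axis) of every tested gene in 6 lists around the decay factors (rows), a panel for each treatment, filled where the edgeR adjusted p was under 0.05. Filled points lie in the 2 target lists and, for the treatments with PDGF-BB, at MAP2K3 and DUSP1 of the p38 and MK2 list, and the bottom 3 lists hold none.

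The general decay machinery did not pass the test. Among 16 genes of the CCR4-NOT and PAN deadenylases with the BTG and TOB adaptors, 11 tested of 12 for decapping and exonucleases, and 8 other binders of AU-rich elements, 0 passed in any comparison in edgeR. At an unadjusted p under 0.05 there were 2 of 112 (1.79%), 5 of 77 (6.49%) and 4 of 56 values (7.14%) over all 7 tests, against 7.27% of the values of all genes, and in DESeq2 0, 0 and 1 passed (CELF1 with PDGF-BB over control, named after its value was seen). The median log2 fold change with both factors over control was -0.01, -0.02 and 0.03 for these lists. ELAVL1 (HuR), which protects AU-rich mRNAs, was at 143 CPM with both factors, 136 CPM with eNAMPT, 142 CPM with PDGF-BB and 131 CPM in control cells.

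In the p38 and MK2 list, 2 of 7 tested genes, MAP2K3 and DUSP1, rose with PDGF-BB over control, against 1.05% of all genes. MAP2K3, a kinase that activates p38, was at 558 ± 49.98 CPM with both factors, 348 ± 61.8 CPM with eNAMPT, 574 ± 23.3 CPM with PDGF-BB and 356 ± 22.7 CPM in control cells (SD, n = 5 each). Its log2 fold change over control was 0.65 with both factors (edgeR adjusted p = 4.52e-07) and 0.69 with PDGF-BB (edgeR adjusted p = 2.3e-07). DUSP1, the phosphatase that switches p38 off, was at 54.3 ± 12.0 CPM with both factors, 23.5 ± 5.36 CPM with eNAMPT, 44.6 ± 9.03 CPM with PDGF-BB and 28.2 ± 3.45 CPM in control cells (SD, n = 5 each). Its log2 fold change over control was 0.94 with both factors (edgeR adjusted p = 8.94e-05) and 0.66 with PDGF-BB (edgeR adjusted p = 0.0182). Both genes, like ZFP36L1, were lower with eNAMPT than with PDGF-BB (log2 fold change -0.72 for MAP2K3 and -0.93 for DUSP1, edgeR adjusted p = 8.8e-08 and 0.00034).

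Of 7 partners of ZC3H12A and related brakes, TNFAIP3 and TNIP1 rose with both factors over control, against 1.63% of all genes. TNFAIP3 encodes A20, a ubiquitin-editing brake on NF-kB, and was at 36.2 ± 4.13 CPM with both factors, 24.3 ± 4.63 CPM with eNAMPT, 25.1 ± 6.06 CPM with PDGF-BB and 10.6 ± 4.18 CPM in control cells (SD, n = 5 each). It rose in each comparison with control. TNIP1, whose product binds A20, had a log2 fold change of 0.54 with both factors over control (edgeR adjusted p = 0.000823). RC3H1 and RC3H2 (roquins), UPF1, MALT1 and ARID5A, which shields the IL6 mRNA, did not pass in any comparison. The other regnases were scarcely detected, with 78 counts for ZC3H12B and 21 for ZC3H12D in all 20 libraries, and were not tested.

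Across the 20 libraries, the genes whose log2 CPM ran most like ZC3H12A were HILPDA (Pearson r = 0.785), IRAK2 (0.746), LDAH (0.712), ZNF573 (0.698) and NFKBIA (0.697), out of 12107 compared. IRAK2 encodes a kinase of the Toll-like and interleukin-1 receptor pathway and NFKBIA the inhibitor IkB-alpha. NFKBIA rose with both factors (log2 fold change over control 0.89, edgeR adjusted p = 1.26e-11) and with eNAMPT (1.01, edgeR adjusted p = 1.55e-12), and its value with PDGF-BB was 0.05 (edgeR adjusted p = 0.912). IRAK2 rose with both factors over control (1.59, edgeR adjusted p = 0.00234). It did not pass with eNAMPT (edgeR adjusted p = 0.413) or PDGF-BB (0.0771) over control. HILPDA, LDAH and ZNF573 passed in no comparison. ZC3H12C stood at rank 89 for ZC3H12A (r = 0.544). These correlations mix treatments and libraries, share the same depth scaling, and are a description.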

How the data were processed

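RNA was sequenced from 20 libraries of an immortalized pericyte line, 5 in each of 4 groups taken from the labels. Per the submitters' processing notes, reads were checked in FastQC 0.11.7 and handled with STAR 2.6.1a on GRCh38, with featureCounts 1.6.4 and DESeq2 1.18.1 also listed, and the strand setting is not given in the sources used here. The deposited table holds raw gene counts with no normalization. The same table holds the authors' log2 fold changes and adjusted p-values, which run first group over second. A further deposited count table served as an alternative.

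The 99 spike-in transcripts were left out of library sizes and tests. Counts were filtered with filterByExpr, scaled by TMM and fitted in edgeR 4.0.16 (R 4.3.3) with a mean per group over all 20 libraries. The quasi-likelihood test was two-sided, p-values were adjusted by Benjamini-Hochberg over 12111 genes, and 0.05 was the threshold. The script was tested on simulated data. Alternatives were RLE size factors, spike-in scaling, DESeq2 1.42.0, no filter, at least 10 counts in 10 libraries, a replicate block, only the groups compared, the other count table, and leaving out each library. Likeness used log2 CPM with a prior count of 2 over genes with a mean of at least 1, and its result for ZFP36 is not reported here. Levels across the text are CPM, and intervals cover 95%. Promoter windows came from RefSeq and 3′ UTRs from GENCODE 29, as the longest of each gene's basic coding transcripts.

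The 6 genes, the lists around them and the tests were chosen with earlier results of these data known. From each list, up to 8 genes with the smallest p among those that passed could be named, beside any gene a sentence counts. NAMPT, PDGFRB and TLR4 were named as the genes of the treatments and receptors.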

Additional observations from a re-analysis of the deposited data

How the results depend on the processing

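Read depth limits ZFP36 and ZC3H12A most, at 8 to 44 counts per library. Of 330 values of single decay factors under alternatives other than leaving out a library, 310 kept direction and side of the threshold. With spike-in scaling, 0 of the 6 passed in the comparisons of both factors with control, both with eNAMPT, PDGF-BB with control and eNAMPT with PDGF-BB, and all genes called numbered 50, 31, 40 and 31 there, and 2 for both factors over PDGF-BB. That scaling also turned the log2 fold changes of N4BP1 for both factors over control (-0.0016), eNAMPT (-0.12) and PDGF-BB (-0.13), of ZFP36L2 for the same 3 (-0.0031, -0.067 and -0.18), of ZFP36 and ZFP36L1 over PDGF-BB (-0.081 and -0.046), and of the interaction for ZC3H12C, ZFP36 and ZFP36L1 (-0.054, -0.15 and -0.086). The cause was not tested. With no filter, ZFP36L2 for both factors over PDGF-BB was -0.00069. DESeq2 called 14 genes, 1 of the 6 among them, for eNAMPT over control and 11 for both factors over PDGF-BB. With no filter these counts were 14 and 12, with 3 for the interaction, and on only the groups compared the count for both factors over PDGF-BB was 11.

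The main tests did not take the replicate numbers as pairs. Correlations between same-numbered libraries were low but all positive (30 pairs, 0.0143 to 0.252, 7 at or under 0.1). Of 20 libraries, 11 correlated best with their own number in every other group. The numbers thus carried some shared spread, which the main tests left in the error. With a replicate block, genes called numbered 510 for both factors over control, 21 for eNAMPT, 377 for PDGF-BB, 511 for both over eNAMPT, 15 for both over PDGF-BB, 362 for eNAMPT over PDGF-BB and 7 for the interaction, and no call on the 6 genes changed (ZC3H12A with eNAMPT over control stood at edgeR adjusted p = 0.0541). Without 1 library, genes called ranged from 81 to 118 for eNAMPT over PDGF-BB (81 without eNAMPT replicate 4) and from 0 to 1 for the interaction. Signs that changed when a library was left out belonged to small values, in these ranges of log2 fold change: N4BP1 for eNAMPT over PDGF-BB -0.052 to 0.035, both over eNAMPT -0.036 to 0.070 and both over PDGF-BB -0.048 to 0.060, ZC3H12A for both over eNAMPT -0.27 to 0.018, ZC3H12C interaction -0.080 to 0.19, ZFP36 for eNAMPT over control -0.20 to 0.29, both over PDGF-BB -0.046 to 0.28 and interaction -0.18 to 0.30, ZFP36L1 for eNAMPT over control -0.016 to 0.068, and ZFP36L2 for both over PDGF-BB -0.048 to 0.057.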

Other observations

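NAMPT, the enzyme of NAD synthesis whose secreted form is eNAMPT, was at 84.2 ± 8.13 CPM with both factors, 66.6 ± 4.61 CPM with eNAMPT, 82.6 ± 8.77 CPM with PDGF-BB and 64.5 ± 6.48 CPM in control cells (SD, n = 5 each). It rose with both factors over control (log2 fold change 0.39, edgeR adjusted p = 0.0220), and with PDGF-BB over control the value was 0.36 (edgeR adjusted p = 0.0608), which did not pass. TLR4, a receptor described for eNAMPT, was at 30.5 ± 3.71 CPM with both factors, 28.1 ± 3.77 CPM with eNAMPT, 31.6 ± 4.23 CPM with PDGF-BB and 37.2 ± 4.46 CPM in control cells (SD, n = 5 each), and its log2 fold change with eNAMPT over control was -0.40 (unadjusted p = 0.00503, edgeR adjusted p = 1.00). PDGFRB, the receptor of PDGF-BB, was at 136 ± 12.6 CPM with both factors, 117 ± 14.9 CPM with eNAMPT, 134 ± 14.4 CPM with PDGF-BB and 133 ± 11.4 CPM in control cells (SD, n = 5 each). With both factors over control its log2 fold change was 0.03 (edgeR adjusted p = 0.961). The eNAMPT group was lowest, at -0.19 against control and -0.20 against PDGF-BB (edgeR unadjusted p = 0.0431 and 0.0380). Both factors over eNAMPT gave 0.22 (edgeR unadjusted p = 0.0228, adjusted p = 0.340), and none of these passed.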
